A study of Mus musculus with 15 samples.

Results

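The genes of motile cilia were followed here in cultured mouse astrocytes given lipopolysaccharide (LPS), with or without prior ginsenoside Rg1. Members were chosen by name alone. They are the gene symbols in the deposited count files that start with Dnah, Rsph, Cfap or Tekt followed by a digit, and Foxj1. This gave 74 of 25748 symbols, of which 46 were Cfap genes, 15 Dnah, 7 Rsph and 5 Tekt. Of these, 57 had enough reads to be tested.

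The 15 libraries were of polyadenylated RNA from primary astrocytes, cultured from mouse brain, in 3 groups of 5. The Rg1 plus LPS cells received 80 µM ginsenoside Rg1, a saponin of ginseng, for 12 h and then 1 µg/mL LPS for 6 to 8 h. The LPS cells, which the submitters label SCI for spinal cord injury, received 1 µg/mL LPS for 6 to 8 h and no Rg1. The control cells received neither. The labels name no strain, genotype, age or sex, and no transgene. LPS on cultured brain cells serves in the labels as a model of spinal cord injury, with no spinal cord tissue in the libraries. No group given Rg1 without LPS was analysed here. Whether the 5 replicates of a group were separate cultures is not said in the labels. The p-values then measure only the spread between libraries, which may be technical.

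Motile cilia beat by sliding of paired microtubules around a central pair. Dynein heavy chains (Dnah) in outer and inner arms are the motors, radial spokes (Rsph) carry signals from the central pair to the arms, and tektins (Tekt) and other inner proteins stiffen the microtubule doublets. Cfap is a naming prefix for cilia and flagella associated proteins of many kinds. FOXJ1 is the forkhead transcription factor that switches on this program, together with RFX factors, in ependymal cells, the multiciliated cells that line the brain ventricles. Foxj1 is also expressed in cells of the astrocyte lineage, whose own cilium is a primary cilium without motility.

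Total counts were 36.2 to 41.1 M per library in Rg1 plus LPS, 34.2 to 41.8 M in LPS and 34.3 to 39.0 M in control. Levels are given as counts per M (CPM) of the library size scaled by TMM factors, and compare libraries for 1 gene. Fragments per kilobase and M (FPKM), as the authors deposited them, compare genes. Changes are log2 fold changes ± SE from edgeR's quasi-likelihood test over 15362 genes, and a gene is called changed at an adjusted p (Benjamini-Hochberg over all genes tested) under 0.05. Replicate 3 of Rg1 plus LPS and replicate 3 of LPS stood above the other libraries of their groups in the level of these genes, and results are also given without them.

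Most members were expressed at a low level. Over all libraries Foxj1 had the highest mean of the tested members, 27.2 FPKM. It was followed by Cfap36 (20.4 FPKM) and Cfap20 (19.6 FPKM), which cells with primary cilia also use, by Rsph1 of the radial spoke head (16.4 FPKM), and by Cfap418 (16.0 FPKM), known from photoreceptor cilia. The median of the tested members was 0.542 FPKM, 19 of the 57 were over 1 FPKM, and the lowest was at 0.0143 FPKM. Of the 17 members not tested, 13 had 10 or more counts over all 15 libraries and failed the filter on low counts. They were Cfap53, Cfap57, Cfap58, Cfap65, Cfap73, Cfap77, Cfap90, Cfap95, Cfap221, Cfap299, Dnah3, Dnah12 and Rsph14. Too few counts for any statement were found for Tekt3 (5 counts in all), Cfap107 (3), Cfap97d1 (1) and Rsph6a (1). None was at 0 in every library.

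The label of the gene set, motile cilia and ependymal genes, was checked against defining markers. Of 25 ependymal markers, 2 are members (Foxj1 and Rsph1), 20 others were in the files and 17 of those were tested. Tppp3, a tubulin polymerisation promoting protein abundant in ependymal cells, was present at 45.6 to 60.6 CPM in Rg1 plus LPS, 22.9 to 40.6 CPM in LPS and 60.7 to 65.5 CPM in control. Together with Cd24a, a surface protein of ependymal and other cells at means of 94.5 CPM in Rg1 plus LPS, 73.7 CPM in LPS and 98.4 CPM in control, it made up most of the list's summed level. The other markers had means of at most 10.7 CPM in any group, and 3 of them, Ccdc153, Hydin and Odf3b, were near 0. Ccdc153 lay at 0.0266 to 0.323 CPM in Rg1 plus LPS, 0 to 0.184 CPM in LPS and 0.0585 to 0.252 CPM in control. Hydin, a central apparatus protein, lay at or below 0.124 CPM in every library, with 0 counts in at least 1 library of each group. Astrocyte markers were abundant, with Gfap at 3167 ± 540 CPM in Rg1 plus LPS, 2849 ± 955 CPM in LPS and 4017 ± 556 CPM in control (SD, n = 5 each). The data hold motile cilium transcripts in cultures of astrocytes, along with 17 listed ependymal markers that had enough reads to be tested. Whether ependymal cells were present was not tested, and no population of them is named here.

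As a group the members were lower in LPS than in control and higher in Rg1 plus LPS than in LPS. The mean log2 CPM over the 57 tested members was 1.41, 1.55, 1.79, 1.43 and 1.55 in the 5 Rg1 plus LPS libraries. It was 0.84, 1.16, 1.44, 0.95 and 0.84 in the LPS libraries, and 1.51, 1.58, 1.53, 1.65 and 1.499 in the control libraries. Each LPS library lay below each control library. The highest LPS library, replicate 3, lay above replicates 1 and 4 of Rg1 plus LPS, and the Rg1 plus LPS libraries lay on both sides of the controls. The group means were 1.55 ± 0.15 in Rg1 plus LPS, 1.05 ± 0.26 in LPS and 1.55 ± 0.06 in control (SD, n = 5 each). The 57 passed the filter partly through their highest group, so these means describe the libraries and are not tested. In bulk RNA, fewer cells with motile cilium transcripts and less of these transcripts per cell cannot be told apart.

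**Figure D1:**
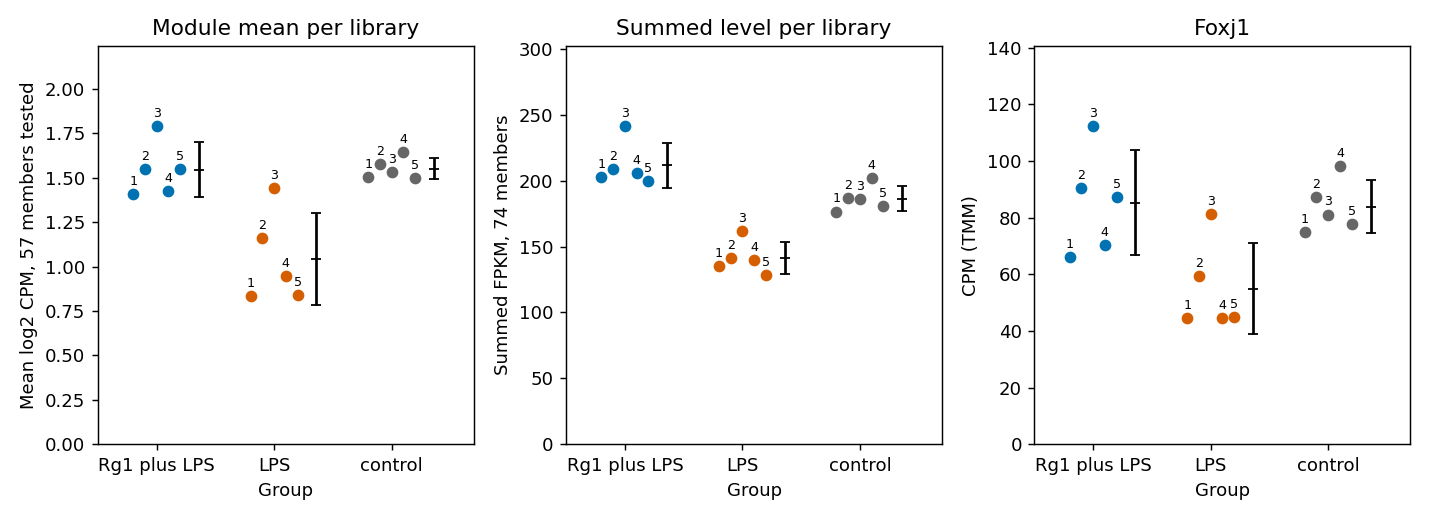
Level of the motile cilium genes in each of the 15 libraries, as the mean log2 CPM over 57 tested members, the summed FPKM of all 74 and the CPM of Foxj1. Each numbered point is a library replicate, in Rg1 plus LPS, LPS and control from left to right, and bars beside the points are mean ± SD. LPS has the lowest group mean in each panel, with libraries at 0.84 to 1.44 in mean log2 CPM, and replicate 3 is the highest library of both LPS-treated groups.

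When all members were added up, LPS was again the lowest of the group means. The 74 members summed to 572 ± 40.9 CPM in Rg1 plus LPS, 423 ± 43.3 CPM in LPS and 538 ± 24.8 CPM in control (SD, n = 5 each). Without Foxj1 they summed to 486 ± 25.5, 368 ± 28.1 and 454 ± 15.9 CPM in Rg1 plus LPS, LPS and control. Per length the sums were 212 ± 17.1 FPKM in Rg1 plus LPS, 141 ± 12.4 FPKM in LPS and 186 ± 9.67 FPKM in control. A set of 49 tested members averaged 0.98 log2 CPM in Rg1 plus LPS, 0.47 in LPS and 1.02 in control. It left out members judged broadly expressed, with no measure of breadth behind the choice. Those were Cfap20, Cfap36, Cfap68, Cfap97, Cfap298, Cfap300, Cfap410 and Cfap418.

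In LPS against control, 20 of the 57 tested members were lower and 0 were higher, where 9.82% of all genes tested were called lower and 13.8% higher, 23.7% in all. Without replicate 1 of LPS the number lower was 13, and without replicate 3 of LPS and replicate 3 of Rg1 plus LPS it was 30. The median log2 fold change of the 57 was -0.44, against -0.003 over all genes tested. In 9 members the LPS and control libraries did not overlap and LPS was lower, where 7.64% of all genes did so. In Rg1 plus LPS against LPS, 28 members were higher and 1, Dnah8, was lower. Of all genes tested, 22.2% were called higher and 23.2% lower in that comparison, 45.4% in all. The median of the members was 0.49, against 0.03 over all genes tested. In Rg1 plus LPS against control, 4 members were higher and 4 lower, a smaller share than the 36.9% of all genes called in either direction. Their median there was 0.06, against 0.01 over all genes tested. The 3 comparisons share libraries, so the changes in LPS and in Rg1 plus LPS against LPS are not independent of each other.

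**Figure D2:**
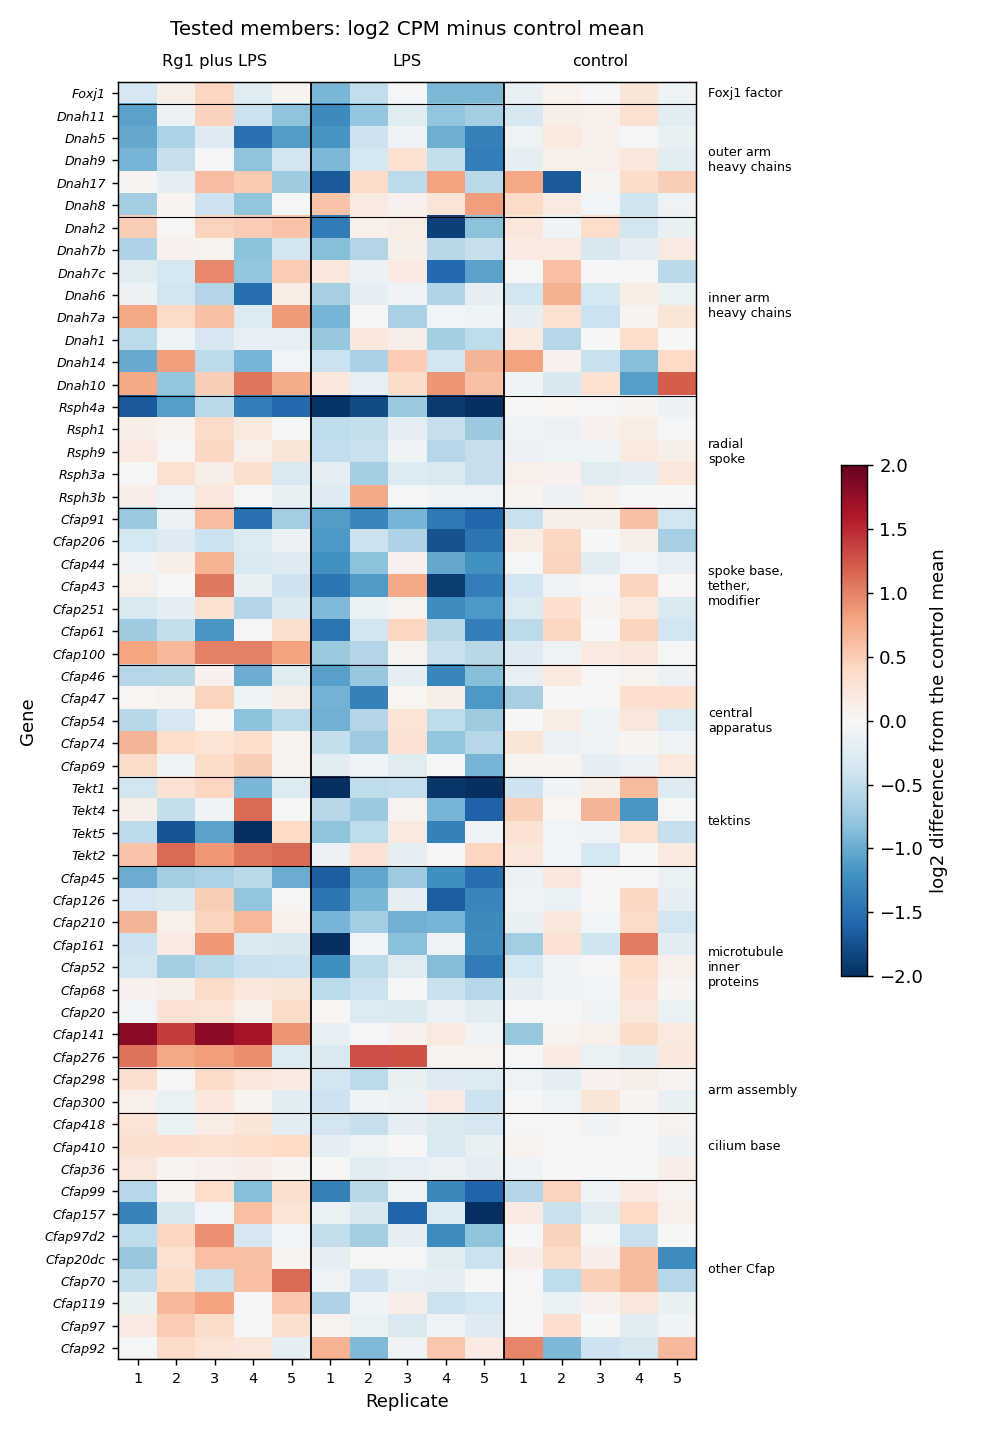
Level of each tested member in each library, as log2 CPM minus that member's mean over the 5 control libraries, with members grouped by role and blue for lower. The colour scale ends at -2.0 and 2.0. Columns run from Rg1 plus LPS to LPS to control, and the LPS columns are lower than the control columns for most members.

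Foxj1 itself, at chr11:116330704-116335499 on the minus strand (RefSeq, GRCm38.p6), moved with the structural genes. It stood at 66.0, 90.5, 112.5, 70.5 and 87.2 CPM in the Rg1 plus LPS libraries. The LPS libraries had 44.5, 59.4, 81.1, 44.5 and 44.9 CPM, and the control libraries 74.9, 87.4, 81.1, 98.3 and 77.6 CPM. Replicate 3 of LPS reached the lower controls, while the other 4 LPS libraries lay below every control and every Rg1 plus LPS library. Foxj1 fell by 0.61 ± 0.17 on the log2 scale in LPS against control (edgeR adjusted p = 0.0181). It was 0.64 ± 0.17 higher in Rg1 plus LPS than in LPS (adjusted p = 0.00733). Against control the difference in Rg1 plus LPS was 0.03 ± 0.17 (adjusted p = 0.927). Without replicate 1 of LPS the fall in LPS missed the threshold (adjusted p = 0.052, and 0.000176 to 0.052 over all alternatives).

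Of the 7 radial spoke genes 5 were tested, with 4 of them lower in LPS than in control and 3 higher in Rg1 plus LPS than in LPS. Rsph1, Rsph4a and Rsph9 encode spoke head proteins, and RSPH3 belongs to the stalk. Rsph4a, at chr10:33905111-33916021 on the plus strand, had the largest fall of all tested members in LPS. Its levels were 1.45, 2.18, 3.26, 1.81 and 1.57 CPM in Rg1 plus LPS. They were 1.18, 1.33, 2.83, 1.21 and 0.927 CPM in LPS, and 4.78, 4.85, 4.81, 4.95 and 4.34 CPM in control. All 10 libraries with LPS lay below all 5 controls. Rsph4a fell by 1.67 ± 0.27 on the log2 scale in LPS against control (edgeR adjusted p = 0.000256). Rg1 plus LPS was also lower than control, at -1.21 ± 0.27 (adjusted p = 0.00213). Between Rg1 plus LPS and LPS its difference of 0.47 ± 0.28 was not called (adjusted p = 0.181).

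Rsph1 and Rsph9 showed another course, with Rg1 plus LPS at the control level. Rsph1 (chr17:31255019-31277296, minus strand) had 20.8, 19.9, 24.7, 21.8 and 18.4 CPM in Rg1 plus LPS. It had 13.3, 13.6, 16.8, 13.7 and 11.4 CPM in LPS, and 17.8, 17.5, 20.2, 21.1 and 18.4 CPM in control. No LPS library reached any library of the other groups. The log2 fold change of Rsph1 was -0.47 ± 0.10 in LPS against control (edgeR adjusted p = 0.00317) and 0.62 ± 0.10 in Rg1 plus LPS against LPS (adjusted p = 0.00013). For Rsph9 these changes were -0.41 ± 0.11 (edgeR adjusted p = 0.00877) and 0.61 ± 0.11 (adjusted p = 0.000192). Rsph3a changed likewise, by -0.39 ± 0.13 and 0.48 ± 0.13, but both calls were lost when the gene length trend was removed (adjusted p of the rise 0.000629 to 0.0909 over all alternatives). The call of the fall was also lost without replicate 2, 4 or 5 of LPS or replicate 1, 2 or 5 of control (adjusted p 0.0153 to 0.0924). Its near copy Rsph3b was not called in any comparison, and reads of the pair may have been split between them.

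The proteins at the spoke base, the tethers and the modifiers of the inner arms gave 4 lower in LPS and 4 higher in Rg1 plus LPS than in LPS, of 7 tested. Cfap100, known in Chlamydomonas as part of the modifier of inner arms, was highest in Rg1 plus LPS. It had 9.42, 8.64, 10.9, 10.9 and 9.54 CPM in Rg1 plus LPS, 3.20, 3.58, 5.65, 3.95 and 3.68 CPM in LPS, and 4.495, 5.01, 6.12, 6.32 and 5.30 CPM in control. Every Rg1 plus LPS library was above every other library. Cfap100 was 1.30 ± 0.15 higher on the log2 scale than in LPS (edgeR adjusted p = 2.76e-06) and 0.86 ± 0.15 higher than in control (adjusted p = 0.000258). In LPS against control it was lower, at -0.44 ± 0.15 (adjusted p = 0.0395). That call was lost without replicate 1, 2, 4 or 5 of LPS or without replicate 2, 3, 4 or 5 of control, with adjusted p of 0.00249 to 0.106 over all alternatives.

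Cfap91, a spoke base protein, was at 0.612 to 2.79 CPM in Rg1 plus LPS, 0.576 to 0.922 CPM in LPS and 1.32 to 2.75 CPM in control. It fell by 1.36 ± 0.34 on the log2 scale in LPS (edgeR adjusted p = 0.00844) and was 0.98 ± 0.34 higher in Rg1 plus LPS than in LPS (adjusted p = 0.0275). Cfap206, which docks spokes and dyneins in Tetrahymena, changed by -1.14 ± 0.30 and 0.79 ± 0.30. It did so at a level under 1.1 CPM in every library. Cfap44, which with Cfap43 forms a tether to the inner arms, changed by -0.79 ± 0.26 in LPS (edgeR adjusted p = 0.039) and 0.85 ± 0.26 in Rg1 plus LPS against LPS (adjusted p = 0.0142). Replicate 3 of LPS had 4.03 CPM of Cfap44, while the other LPS libraries had 1.60 to 2.12 CPM. The fall of Cfap44 was not called without replicate 1, 2, 4 or 5 of LPS or replicate 1, 2, 3 or 4 of control (adjusted p 0.000278 to 0.107 over all alternatives). The rise of Cfap91 was lost without replicate 2 or 3 of Rg1 plus LPS or replicate 2, 4 or 5 of LPS (adjusted p 0.00653 to 0.108). That of Cfap206 was lost in 9 of the 15 refits without 1 library, those without replicate 1, 2, 4 or 5 of Rg1 plus LPS, 1, 4 or 5 of LPS, or 1 or 3 of control (adjusted p 0.0171 to 0.103).

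Proteins inside the doublet microtubules, or at their inner junction, made up the largest role with 14 members, of which 9 were tested. Of these, 5 were lower in LPS and 6 higher in Rg1 plus LPS than in LPS. Cfap45 and Cfap52 line the inside of the B tubule. Cfap45, at chr1:172521130-172545870 on the plus strand, had 3.07, 3.77, 3.93, 4.18 and 3.05 CPM in Rg1 plus LPS. It had 1.91, 2.96, 3.69, 2.60 and 2.13 CPM in LPS, and 5.66, 7.21, 6.25, 6.06 and 5.58 CPM in control. All libraries with LPS were below all controls. Its fall of 1.21 ± 0.17 on the log2 scale in LPS had the smallest adjusted p of the members in that comparison (edgeR adjusted p = 4.78e-05). In Rg1 plus LPS against control it was lower too, at -0.77 ± 0.17 (adjusted p = 0.00166). Its rise of 0.44 ± 0.17 over LPS was near the threshold (adjusted p = 0.0421) and was lost in 12 of 26 alternatives. Among these were the refits without replicate 2, 3 or 4 of Rg1 plus LPS, 1, 4 or 5 of LPS, or 1 or 3 of control (adjusted p 0.00648 to 0.163 over all alternatives). Cfap52 changed by -0.82 ± 0.20 in LPS against control (edgeR adjusted p = 0.0062) and by -0.51 ± 0.19 in Rg1 plus LPS against control (adjusted p = 0.0487). The second of these was lost without any 1 of the Rg1 plus LPS replicates, without replicate 2 or 4 of LPS, and without replicate 2, 3, 4 or 5 of control (adjusted p 0.0154 to 0.14).

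Other inner proteins were higher in Rg1 plus LPS. Cfap141 had 4.35, 3.28, 4.30, 3.91 and 2.29 CPM in Rg1 plus LPS. It had 1.08, 1.19, 1.29, 1.38 and 1.15 CPM in LPS, and 0.698, 1.27, 1.31, 1.58 and 1.40 CPM in control. All Rg1 plus LPS libraries lay above all others, and LPS and control overlapped. Its rise was 1.57 ± 0.22 on the log2 scale over LPS (edgeR adjusted p = 2.43e-05) and 1.53 ± 0.22 over control (adjusted p = 5.71e-05). Cfap210 had 3.27 to 4.93 CPM in Rg1 plus LPS, 1.23 to 1.87 CPM in LPS and 2.33 to 3.98 CPM in control. It fell by 1.00 ± 0.19 in LPS (edgeR adjusted p = 0.000859) and rose by 1.40 ± 0.19 in Rg1 plus LPS against LPS (adjusted p = 1.44e-05). Cfap126, the Flattop protein, and Cfap68 also fell in LPS and were higher in Rg1 plus LPS than in LPS, with log2 fold changes of -1.04 and 0.90 and of -0.38 and 0.59. The fall of Cfap68 was lost without replicate 1 of LPS or replicate 4 of control (adjusted p 0.000532 to 0.0543). Cfap20 of the inner junction rose only slightly over LPS (0.38 ± 0.09), a call lost when the gene length trend was removed (adjusted p 0.000427 to 0.217).

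Tektins form filaments along the doublets, and 4 of the 5 were tested. Tekt1, at chr11:72344717-72362442 on the minus strand, had 1.11, 1.79, 1.98, 0.745 and 1.19 CPM in Rg1 plus LPS. It had 0.188, 1.00, 1.01, 0.339 and 0.326 CPM in LPS, and 1.09, 1.38, 1.58, 2.28 and 1.21 CPM in control. LPS libraries were below all controls but split into a lower 3 and a higher 2. Tekt1 changed by -1.40 ± 0.41 on the log2 scale in LPS (edgeR adjusted p = 0.0216) and by 1.26 ± 0.41 in Rg1 plus LPS against LPS (adjusted p = 0.0205). The fall was lost without replicate 1, 4 or 5 of LPS or replicate 4 of control (adjusted p 0.00451 to 0.0642), and the rise without replicate 3 of Rg1 plus LPS or replicate 4 or 5 of LPS (adjusted p 0.00733 to 0.0542). Tekt2 was higher in Rg1 plus LPS than in either other group. It had 3.96, 5.88, 4.87, 5.62 and 5.89 CPM in Rg1 plus LPS, 2.45, 3.25, 2.34, 2.57 and 3.58 CPM in LPS, and 3.07, 2.55, 2.06, 2.66 and 3.06 CPM in control. Its rise was 0.88 ± 0.16 over LPS (edgeR adjusted p = 0.000356) and 0.97 ± 0.16 over control (adjusted p = 0.000266). Of the exon bases of Tekt2, 20.8% overlap the gene Gm12945, and the strand setting of the counting is not given in the sources used here. Tekt4 and Tekt5 were not called.

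The dynein motor genes tested were too few for their counts of calls to set them apart from other members. Of the 8 inner arm heavy chains tested, 0 were lower in LPS, where 9.82% of all genes tested were. In Rg1 plus LPS against LPS 2 were higher, where 22.2% of all genes tested were. Median log2 fold changes in LPS were -0.37 for inner and -0.47 for outer arm chains, against -0.44 over the 57 tested members. Dnah2 and Dnah7a were higher in Rg1 plus LPS than in LPS, by 1.06 ± 0.36 and 0.87 ± 0.29 (edgeR adjusted p = 0.0243 and 0.0225), at about 1 CPM or less in every library. Dnah7a shares near-identical sequence with Dnah7b and Dnah7c, so its reads are uncertain. The rise of Dnah2 was lost without replicate 1, 4 or 5 of LPS (adjusted p 0.00679 to 0.0634), and that of Dnah7a without replicate 5 of Rg1 plus LPS or replicate 1 of LPS (adjusted p 0.00615 to 0.0737). Of the 5 outer arm heavy chains, Dnah5, a motor of the outer arm whose loss impairs ependymal flow in mice, was lower in LPS. It had 1.21, 1.59, 2.08, 0.852 and 1.12 CPM in Rg1 plus LPS, 1.08, 1.87, 2.34, 1.24 and 0.952 CPM in LPS, and 2.33, 2.87, 2.67, 2.43 and 2.24 CPM in control. Both LPS-treated groups were low, and in LPS replicate 3 alone reached the control range. Dnah5 changed by -0.75 ± 0.26 in LPS against control (edgeR adjusted p = 0.0489) and by -0.87 ± 0.26 in Rg1 plus LPS against control (adjusted p = 0.0162). Its call in LPS was lost in 10 of the 15 refits that left out 1 library, namely replicate 2 or 5 of Rg1 plus LPS, 1, 4 or 5 of LPS, or any control (adjusted p 0.00541 to 0.121).

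Dnah8, at chr17:30626935-30875762 on the plus strand and known mainly from sperm, was the 1 member called lower in Rg1 plus LPS than in LPS. It had 8.02, 13.5, 9.74, 7.45 and 12.8 CPM in Rg1 plus LPS, 19.2, 14.6, 13.7, 15.6 and 23.2 CPM in LPS, and 16.9, 14.7, 12.5, 9.83 and 12.0 CPM in control. Each Rg1 plus LPS library was below each LPS library. The log2 fold change was -0.75 ± 0.19 against LPS (edgeR adjusted p = 0.00456). In LPS against control Dnah8 differed by 0.39 ± 0.19 (adjusted p = 0.151).

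Of the 5 central apparatus genes tested, Cfap46 was lower in LPS (-0.81 ± 0.23, edgeR adjusted p = 0.0151), and Cfap69 and Cfap74 were higher in Rg1 plus LPS than in LPS (0.54 ± 0.16 and 0.78 ± 0.20). Cfap298, a cytoplasmic factor needed to assemble dynein arms, fell by 0.32 ± 0.09 in LPS (edgeR adjusted p = 0.0155) and rose by 0.53 ± 0.09 in Rg1 plus LPS against LPS (adjusted p = 0.000136). Of its exon bases 44.2% overlap Gm49727 on the other strand. The genes of the cilium base or primary cilium, Cfap36, Cfap410 and Cfap418, were all higher in Rg1 plus LPS than in LPS, and Cfap418 was lower in LPS. Cfap410 had 31.4, 31.4, 31.0, 31.7 and 32.8 CPM in Rg1 plus LPS, 21.7, 23.3, 25.1, 20.3 and 22.5 CPM in LPS, and 26.2, 25.2, 25.2, 25.3 and 23.1 CPM in control. It was above both other groups without overlap, by 0.49 ± 0.06 over LPS (edgeR adjusted p = 8.95e-06) and 0.34 ± 0.06 over control (adjusted p = 0.00045). Among other Cfap genes, Cfap119, Cfap97, Cfap97d2 and Cfap99 were higher in Rg1 plus LPS than in LPS, and Cfap99 was lower in LPS. Both calls of Cfap99 and that of Cfap97d2 were near the threshold (adjusted p 0.0462, 0.0479 and 0.0257), and were lost in 10, 9 and 5 of the 15 refits without 1 library.

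**Figure D3:**
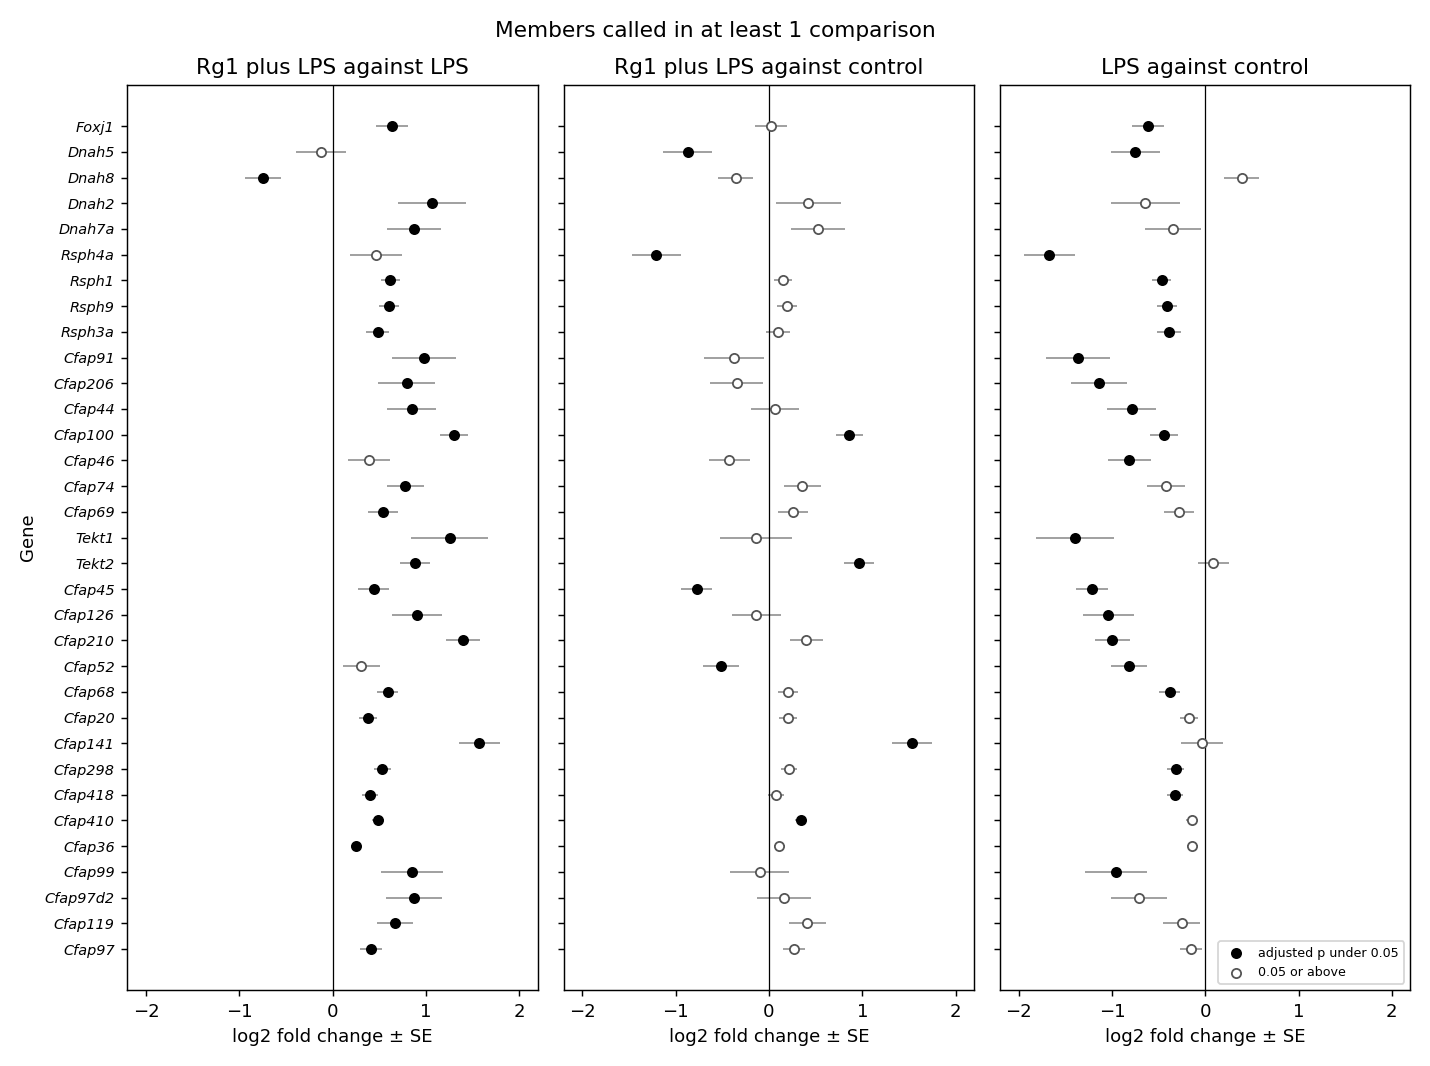
Log2 fold changes of the 33 members called in at least 1 comparison, for Rg1 plus LPS against LPS, Rg1 plus LPS against control and LPS against control, from left to right. Bars are SE, and filled points are called at an adjusted p under 0.05. Rsph4a and Cfap45 remain below 0 against control in Rg1 plus LPS, while Cfap141, Tekt2 and Cfap100 lie above 0 there.

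The 8 members that differed between Rg1 plus LPS and control went both ways. Cfap100, Cfap141, Cfap410 and Tekt2 were higher, and Rsph4a, Cfap45, Cfap52 and Dnah5 were lower. The calls of Cfap52 and Dnah5 were lost under 14 and 1 of the 26 alternatives, and the other 6 held in all of them. Without replicate 3 of LPS and of Rg1 plus LPS, 4 were higher and 7 lower.

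Promoters were searched for the X-box, the DNA motif bound by RFX factors. The motif searched, on both strands, was GTTNCC and GNAAC with any 3 bases between them. RefSeq promoter windows of 250 bases before to 50 after the gene start were at hand for 51 of the 74 members. Of these, 6 (11.8%) held the motif, against 0.936% of 27025 symbols with a window. They were Cfap20dc, Cfap298, Cfap44, Cfap45, Cfap61 and Tekt4. The short form GTTGCC, which overlaps the X-box, was in 37.3% of the members and 14.1% of all symbols. The forkhead motif TGTTTAC was in 7.84% and 4.05%. The letters of the motifs were settled after other forms had been looked at. Windows are shown of the 3 members with the full motif searched that were called in LPS against control. They run 5′ to 3′ on the gene's strand (RefSeq, GRCm38.p6), with matches to the motif searched in capitals. The Cfap298 window also holds GTTGCC followed by GGCAAC at a wider spacing. That stretch is left in lower case because the motif searched does not match it.
Cfap298, chr16:90934800-90935099, minus strand: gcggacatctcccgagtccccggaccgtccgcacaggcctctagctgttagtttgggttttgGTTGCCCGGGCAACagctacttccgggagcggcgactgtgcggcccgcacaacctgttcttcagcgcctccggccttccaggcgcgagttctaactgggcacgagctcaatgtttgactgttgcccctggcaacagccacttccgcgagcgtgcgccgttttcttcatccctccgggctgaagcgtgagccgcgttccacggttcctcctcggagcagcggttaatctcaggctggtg
Cfap44, chr16:44394549-44394848, plus strand: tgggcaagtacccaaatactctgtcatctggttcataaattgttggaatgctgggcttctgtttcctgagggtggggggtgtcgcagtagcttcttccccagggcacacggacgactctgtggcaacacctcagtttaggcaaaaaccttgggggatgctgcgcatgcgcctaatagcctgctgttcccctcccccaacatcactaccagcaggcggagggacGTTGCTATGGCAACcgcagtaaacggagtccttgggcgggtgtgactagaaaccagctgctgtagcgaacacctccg
Cfap45, chr1:172520880-172521179, plus strand: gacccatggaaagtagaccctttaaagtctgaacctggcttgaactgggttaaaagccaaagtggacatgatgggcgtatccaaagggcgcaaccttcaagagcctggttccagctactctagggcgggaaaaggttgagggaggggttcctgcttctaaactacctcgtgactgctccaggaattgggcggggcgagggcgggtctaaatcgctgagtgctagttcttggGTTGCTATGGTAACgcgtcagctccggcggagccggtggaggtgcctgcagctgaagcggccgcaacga
Counted from the start site on which each window is built, the motif lay at -188 to -175 in Cfap298, at -27 to -14 in Cfap44 and at -19 to -6 in Cfap45. For Cfap44 the gene annotation begins upstream of that site, at 44394742, so there the motif lies inside the annotated gene. A match describes the letters and no binding was measured.

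Expression of RFX factors and other regulators was also compared. Of 14 regulators of multiciliated cells, none a member, 10 were tested. In LPS against control 4 were lower and 1 higher, where 9.82% of all genes tested were lower and 13.8% higher. In Rg1 plus LPS against LPS 3 were higher and 1 lower, where 22.2% of all genes tested were higher and 23.2% lower. In Rg1 plus LPS against control 3 were lower, where 18.1% of all genes tested were. Rfx2, which acts with FOXJ1 on ciliary genes, was at 15.3 ± 2.18 CPM in Rg1 plus LPS, 7.03 ± 0.65 CPM in LPS and 22.9 ± 1.27 CPM in control (SD, n = 5 each). The 3 groups did not overlap. Its log2 fold changes were -1.71 ± 0.10 in LPS against control (edgeR adjusted p = 1.43e-09), 1.12 ± 0.10 in Rg1 plus LPS against LPS (adjusted p = 1.43e-07) and -0.59 ± 0.10 in Rg1 plus LPS against control (adjusted p = 0.000192). Rfx3, needed for normal cilia in mice, was at 6.10 ± 1.20 CPM in Rg1 plus LPS, 4.94 ± 0.90 CPM in LPS and 11.5 ± 0.95 CPM in control. It was lower than control in both LPS-treated groups, by log2 fold changes of -0.91 ± 0.14 in Rg1 plus LPS and -1.22 ± 0.15 in LPS. Between Rg1 plus LPS and LPS neither Rfx1, Rfx3 nor Rfx4 was called (adjusted p = 0.0757, 0.0965 and 0.0943). Ccno, needed for the amplification of centrioles, had 1.12 ± 0.54 CPM in Rg1 plus LPS, 0.292 ± 0.124 CPM in LPS and 4.34 ± 0.82 CPM in control. It fell by 3.88 ± 0.34 on the log2 scale in LPS (edgeR adjusted p = 2.85e-07) and was 1.93 ± 0.35 higher in Rg1 plus LPS than in LPS (adjusted p = 0.000279). Rfx4 also fell in LPS, while E2f4 was higher in LPS and lower in Rg1 plus LPS than in LPS. Gmnc, the upstream switch of multiciliated fate, was higher in Rg1 plus LPS than in LPS by 1.41 ± 0.49 (adjusted p = 0.0286). Mcidas, Trp73, Cdc20b and Foxn4 were not tested, and Mcidas had a mean under 0.1 CPM in each group.

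Axonemal genes with other names followed the members. Over all genes tested, 9.82% were called lower and 13.8% higher in LPS against control. For Rg1 plus LPS against LPS the shares were 22.2% higher and 23.2% lower. Of 18 tested dynein chains and assembly factors, 5 were lower in LPS and 0 higher, and 10 were higher and 2 lower in Rg1 plus LPS than in LPS. Odad3, a docking protein of the outer arm, was at 4.22 ± 0.88 CPM in Rg1 plus LPS, 1.03 ± 0.22 CPM in LPS and 2.45 ± 0.68 CPM in control. It changed by -1.26 ± 0.21 in LPS (edgeR adjusted p = 0.000364) and 2.04 ± 0.21 in Rg1 plus LPS against LPS (adjusted p = 1.04e-06). Ccdc103, needed for arm attachment, changed by -0.82 ± 0.21 and 1.54 ± 0.21. Of 26 tested genes of the central pair, the ruler and the nexin link, 7 were lower in LPS and 0 higher, and 11 were higher and 0 lower in Rg1 plus LPS than in LPS. Mns1, an inner protein of the doublets, changed by -0.72 ± 0.13 and 0.81 ± 0.13. Genes of the primary cilium and of intraflagellar transport had smaller median changes, and were less one-sided in Rg1 plus LPS against LPS. Of 54 tested, 9 were lower and 1 higher in LPS, and 17 were higher and 9 lower in Rg1 plus LPS than in LPS, at medians of -0.12 and 0.12.

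Some markers of ependymal cells and of astrocytes were also lower in LPS. Of 17 tested ependymal markers, 6 were lower in LPS and 0 higher, and 8 were higher and 0 lower in Rg1 plus LPS than in LPS. Their summed level was 168 to 224 CPM in Rg1 plus LPS, 98.7 to 175 CPM in LPS and 179 to 223 CPM in control. Tppp3 fell by 1.07 ± 0.12 on the log2 scale in LPS (edgeR adjusted p = 6.08e-06). Of 12 astrocyte markers, 7 were lower in LPS and 0 higher, while 5 were higher and 1 lower in Rg1 plus LPS than in LPS. In Rg1 plus LPS against control 5 astrocyte markers were lower and 0 higher, where 18.1% of all genes tested were lower and 18.8% higher. The astrocyte list had a median log2 fold change of -0.53 in LPS against control. Its medians for Rg1 plus LPS were 0.15 relative to LPS and -0.36 relative to control. These markers summed to 7406 to 11940 CPM in Rg1 plus LPS, 7095 to 11890 CPM in LPS and 10570 to 13290 CPM in control. Replicate 3 was the highest for both lists and for the member mean in Rg1 plus LPS and in LPS. The part of cell composition in the result was not tested.

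**Figure D4:**
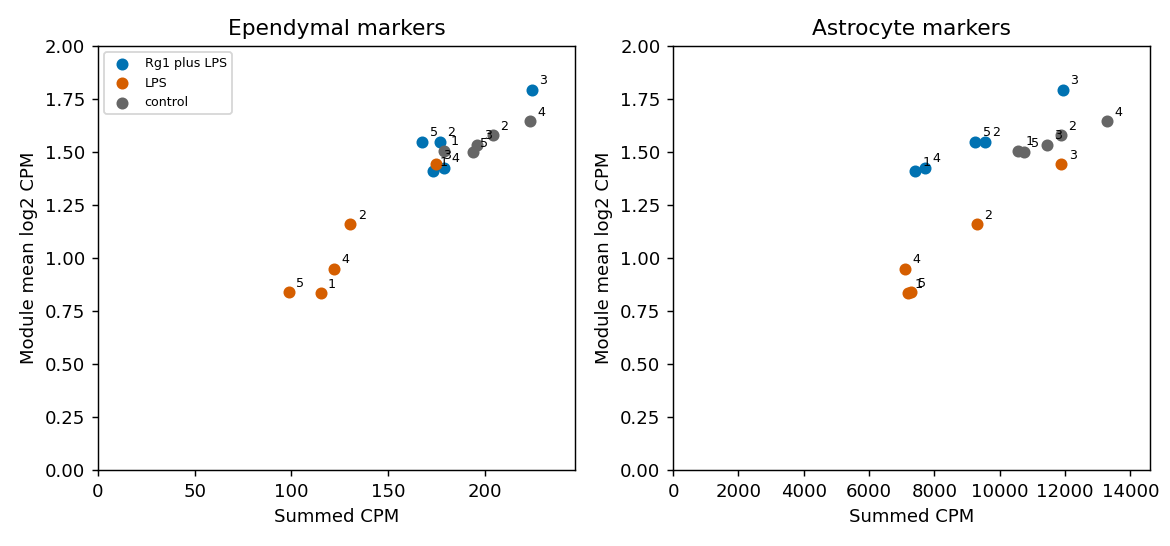
Mean log2 CPM of the 57 tested members against the summed CPM of ependymal markers (left) and astrocyte markers (right), 1 numbered point per library. Replicate 3 of Rg1 plus LPS and of LPS is highest in its group in both panels. On the right, LPS libraries lie below Rg1 plus LPS libraries of a similar astrocyte marker sum. On the left, replicate 3 of LPS (175 CPM, mean 1.44) lies among Rg1 plus LPS libraries of a similar sum. Examples are replicate 1 (173 CPM, mean 1.41) and replicate 2 (176.5 CPM, mean 1.55). The other LPS libraries have lower ependymal marker sums than any Rg1 plus LPS library. The ependymal list itself holds genes of the motile cilium, among them Ak7, Enkur, Hydin and Spag6l. The left panel thus sets partly related genes against each other, and cell content was not tested.

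Other cell types were looked at in the same way. Choroid plexus epithelium carries motile cilia too. Among its 12 listed markers Ttr and Kl, a secreted carrier protein and a membrane protein, were near 0. Their means were 0.0881 and 0.0103 CPM in Rg1 plus LPS, 0.0435 and 0.0115 CPM in LPS and 0.0711 and 0.0117 CPM in control. The others were not all so low, as 6 of the 12 had enough reads to be tested. The 12 choroid plexus markers summed to 40.1 to 228 CPM in Rg1 plus LPS, 97.8 to 361 CPM in LPS and 174 to 355 CPM in control. Most of this was Aqp1, a water channel that astrocytes can also express, at means of 117.5 CPM in Rg1 plus LPS, 172.8 CPM in LPS and 259 CPM in control. Of 6 choroid plexus markers tested, 1 was lower in LPS and 2 were higher in Rg1 plus LPS than in LPS. Of 17 microglia and macrophage markers, 1 was higher in LPS and 10 were lower in Rg1 plus LPS than in LPS. Their median log2 fold change was 0.30 in LPS against control and -1.85 in Rg1 plus LPS against LPS. In Rg1 plus LPS against control 7 of the 17 were lower, where 18.1% of all genes tested were, at a median of -1.14. The 17 markers summed to 119 to 147 CPM in Rg1 plus LPS, 136 to 220 CPM in LPS and 132 to 233 CPM in control. Of 8 endothelial and mural markers tested, 1 was higher in LPS and 3 were lower in Rg1 plus LPS than in LPS, and of 9 meningeal fibroblast markers 1 was lower in LPS. The endothelial and mural markers summed to 170 to 260.5 CPM in Rg1 plus LPS, 316 to 364 CPM in LPS and 260.4 to 278 CPM in control. The meningeal fibroblast markers summed to more, at 2406 to 7058 CPM in Rg1 plus LPS, 5066 to 7352 CPM in LPS and 4984 to 6623 CPM in control. Within Rg1 plus LPS the fibroblast sum was uneven, with replicates 1 and 4 lowest at 2406 and 3360 CPM. Of 9 neuron markers, 3 were lower and 1 higher in LPS, and 2 were lower and 1 higher in Rg1 plus LPS than in LPS. Of 7 oligodendrocyte lineage markers 1 was lower in LPS, and 3 were lower and 2 higher in Rg1 plus LPS than in LPS. Beside these counts, 9.82% of all genes tested were lower and 13.8% higher when LPS was set against the controls. With Rg1 plus LPS set beside LPS, the shares were 23.2% lower and 22.2% higher. The endothelial and mural, neuron and oligodendrocyte lists were too short for their counts to be told apart from these shares. The part of these other cell types in the result was not tested.

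Within groups the members did not all vary alike. Each member's deviation from its group means was correlated with that of the mean of the other tested members over 15 libraries, as a description with no test, since libraries share depth and composition. The median Pearson r was 0.504, 29 of 57 members were over 0.5 and 10 were below 0. Foxj1 had the highest r, 0.961, followed by Dnah9 (0.917), Rsph4a (0.896) and Cfap54 (0.891). Cfap36 (-0.427) and Dnah8 (-0.343) ran the other way. Among genes that are no members, the 10 whose deviations were most like those of the member mean were Gprc5b (0.982), Gfap (0.971), Apoe (0.971), Tafa5 (0.969), 2410004P03Rik (0.966), Aldoc (0.966), Ttyh1 (0.962), Gpld1 (0.962), Slc22a17 (0.960) and Mlc1 (0.958), over the same 15 libraries. This likeness is within groups and did not always hold between them. Gprc5b was not called in LPS against control and was lower in Rg1 plus LPS than in LPS (log2 fold change -0.27, edgeR adjusted p = 0.0356). Gfap and Mlc1 were called in neither comparison, and Ttyh1 and Gpld1 only as lower in LPS. Apoe, Tafa5, 2410004P03Rik, Aldoc and Slc22a17 were lower in LPS and higher in Rg1 plus LPS than in LPS.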

How the data were processed

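TRIzol RNA was made into VAHTS Universal V6 libraries, per the labels' protocols. The submitters' processing notes name builds GRCm38 and mm10. Which aligner, counter and strand setting were used is not given in the sources used here. Unnormalised counts per symbol were deposited by library. The authors also deposited FPKM, which equalled count over length and total count to a relative deviation of 7.22e-10, with 37 damaged symbols per file, none a member, left out.

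Counts were filtered with filterByExpr, scaled by TMM and fitted in edgeR 4.0.16 (R 4.3.3) with a robust quasi-likelihood fit over all 15 libraries and group as the only term. Two-sided p-values were adjusted by Benjamini-Hochberg over 15362 genes. Log2 CPM used a prior count of 2. A count of 3 in a library was taken as the floor of detection, and covers counting error only. DESeq2 1.42.0 and limma 3.58.1 (voom) were alternatives.

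The members, lists, roles and tests were chosen with earlier results of these data known. Named are Foxj1, the members called in any comparison, the 5 highest by FPKM, and of other lists up to 4 that rose and 4 that fell. The treatment field of the Rg1 group runs from Rg1 to Rg5, and the titles and design text were followed. Of the members, 62 were matched in the RefSeq gene table (GRCm38.p6).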

Additional observations from a re-analysis of the deposited data

Results flagged for a closer look

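Among 105 groups of 5 libraries tested with Dixon's rule at its critical value of 0.71, 11 held a library that stood far from the other 4. Chance flags about 1 in 20. Replicate 3 of LPS was high for Cfap44 (4.03 CPM, next 2.11), Cfap68 (40.2 CPM, next 29.6), Cfap74 (2.92 CPM, next 1.69), Rsph4a (2.83 CPM, next 1.33) and Rsph9 (15.5 CPM, next 12.0). Replicate 3 of Rg1 plus LPS was high for the summed level of ependymal markers, at 224 CPM with the next at 179 CPM. In Rg1 plus LPS, replicate 2 was low for Dnah2 (0.67 CPM). In LPS, replicate 5 was low for Cfap69 (3.08 CPM). In control, replicate 4 was high for Cfap126 (6.26 CPM), replicate 2 was high for Cfap44 (5.2 CPM) and replicate 5 was low for Rsph4a (4.34 CPM).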

How the results depend on the processing

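The count of members changed stayed within 1.5 times its value under every alternative but 1. In LPS against control it was 20, and 13 without replicate 1 of LPS, with a range of 13 to 28 over refits that left out 1 library. In Rg1 plus LPS against LPS that range was 22 to 36, and in Rg1 plus LPS against control 7 to 9. In the same refits, differences of the member mean ranged from -0.607 to -0.455, from 0.438 to 0.599 and from -0.07 to 0.026 in these 3 comparisons. Under the other alternatives they were -0.548 to -0.463, 0.48 to 0.605 and -0.019 to 0.056. The difference between Rg1 plus LPS and control, -0.007, thus has no stable sign, and it moved by less than the spread between replicates. No called difference changed sign. Calls that held in every alternative run (25 or 26 per gene) were 12 of 20, 19 of 29 and 6 of 8. Scaling by library size alone moved the median of all genes to 0.14 in Rg1 plus LPS against LPS. It called 30 members there, and 9 higher and 3 lower in Rg1 plus LPS against control. Leaving out replicate 3 of LPS and of Rg1 plus LPS, chosen after seeing the data, gave 30, 31 and 11. Correlations of same-numbered libraries were -0.22 to 0.16 in LPS against control, with 0 of 5 best with their own number. They were -0.22 to 0.14 in Rg1 plus LPS against control, with 1 of 5. In Rg1 plus LPS against LPS all were positive, at 0.05 to 0.42, with 3 of 5. Some shared structure by replicate number is therefore possible in that comparison, and the main fit does not model it. With the replicate block the counts were 24, 30 and 10. Depth limits the members under 1 CPM.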
